A study of Homo sapiens with 2 samples.

Results

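FOXM1, the MYB family factors and the MuvB core were examined in PC3 cells after knockdown of SUB1, a transcriptional coactivator. The set holds 10 genes chosen by name, FOXM1, MYBL1, MYBL2, LIN9, LIN37, LIN52, LIN54, TFDP1, TFDP2 and DYRK1A, and every probe named for one of them was used. These were 18 of the 41000 gene probes on the array and 10 of the 30482 genes that the probes name. PC3 is an established, aggressive prostate cancer cell line. RNA of cells given SUB1 siRNA 1 or SUB1 siRNA 2 was labelled with Cy5 and hybridised against Cy3-labelled RNA of cells given Non-T siRNA, the non-targeting control. Each siRNA had 1 array, the dyes were not swapped, and a second transfection followed the first by 24 h, with harvest at 72 h.

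The MuvB core is a set of LIN proteins and RBBP4 that changes partners through the cell cycle. In quiescent cells it joins the pocket proteins RBL1 or RBL2, E2F4 or E2F5 and a DP protein (TFDP1, TFDP2) to form DREAM, which holds cell-cycle genes silent, and the kinase DYRK1A promotes this assembly by phosphorylating LIN52. In proliferating cells MuvB binds MYBL2 (B-MYB) and then FOXM1 and switches on the genes of G2 and mitosis, such as PLK1 and CCNB2. MuvB reaches these promoters through LIN54, which contacts a short element called the CHR, while E2F-DP dimers bind the E2F element of G1/S genes. MYBL2 and FOXM1 are themselves genes of the cell cycle, and both are known for high levels in aggressive prostate tumours.

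Short promoter stretches are shown first because they hold the elements through which these regulators are known to act. They come from RefSeq promoter windows of GRCh38.p14, which run from 250 bases before to 50 bases after a transcription start. Of the members, 8 have such a window (19 windows in all), and no window was used for FOXM1 or MYBL1. The 4 G2/M target genes named by rule for the largest mean change each held the CHR letters TTTGAA or TTCGAA (searched on both strands, here in capitals) close to the start. The stretches lie at chr16:23678842-23678871 for PLK1, chr5:163460592-163460621 for HMMR, chr15:59105099-59105128 for CCNB2 and chr10:93496591-93496620 for CEP55, all on the plus strand. In HMMR the letters stand there as an adjoining pair, and in CEP55 they read on the opposite strand.
PLK1: aacgttcccagcgccgcgTTTGAAttcggg
HMMR: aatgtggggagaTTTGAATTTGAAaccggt
CCNB2: ggcgcaagcgacgcggtaTTTGAAtcctgg
CEP55: cgccctgcagccgcgggaTTCAAActcccg

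The same letters were looked for in the members. MYBL2 (chr20:43667063-43667092, plus strand) has neither the CHR letters nor any of the E2F letters TTTCCCGC, TTTGGCGC, TTTCGCGC and TTTGCCGC in its single window, and the stretch shows the shorter core GGCGGGA, which begins 39 bases before the start. TFDP1 (chr13:113584621-113584650, plus strand) and LIN52 (chr14:74084919-74084948, plus strand) each held 1 of the E2F letters, and LIN54 (chr4:83010906-83010935, minus strand) held the CHR letters. Capitals mark the core in MYBL2, the E2F letters in TFDP1 and LIN52, and the CHR in LIN54. The E2F letters and the core can overlap, as they do in LIN52, and the core was chosen after the MYBL2 window was seen. Only these exact letters were searched, so an E2F element written in other letters would be missed in MYBL2.
MYBL2: gccgacgcgcttGGCGGGAgatagaaaagt
TFDP1: agggcgccgaagGCGCGAAAaggcgcgcag
LIN52: atggaacctcgtTTTCCCGCcgacggttgg
LIN54: ggcccttgtgcgTTTGAAggttggcggggc

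A match of letters is a description and not a binding site. Over all 35116 windows the CHR letters were in 16.35%, the E2F letters in 3.31%, and the core in 15.37%. Among the members, 5 of the 8 genes with a window held the CHR letters in at least 1 window (9 of 19 windows). The E2F letters were in 3 genes (3 of 19 windows, 15.79%) and the core in 8 (10 of 19 windows, 52.63%). LIN9, LIN37, LIN54, TFDP2 and DYRK1A were the members with CHR letters, some of them only in windows of an alternative start. DYRK1A has 6 windows and LIN9 and TFDP2 have 3 each, which gives them more chances of a match than MYBL2 with 1. Windows can overlap, so the same letters can be counted more than once, as the CHR and the core are in the 2 windows of LIN54.

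The knockdown and the arrays were checked before the members. SUB1 was at 10.2% of its Non-T level with siRNA 1 and at 10.4% with siRNA 2 by its brightest probe, and at 28.6% and 33.8% by the dimmest of its 4 probes. Its mean log2 ratio passed limma's test (adjusted p = 0.0248), a call that was lost with no background correction, median centring, processed signals and the authors' ratios. All 5 epithelial markers looked for (KRT8, KRT18, KRT19, EPCAM and CDH1) were well above background in the Non-T channel, CDH1 with a dim signal of 141 and 126. So were 4 of 8 leucocyte and fibroblast markers, each as dim (COL1A1, the brightest, at 164 and 139), while PTPRC was not. Both arrays lay on 1 slide and were scanned together, and the median spot had Cy3 and Cy5 intensities of 128 and 116 with siRNA 1 and of 114 and 105 with siRNA 2.

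A log2 ratio here is SUB1 siRNA over Non-T siRNA, normalized so that most genes lie near 0 (the median of all genes was 0.02 on each array). A probe was kept where either channel was well above background on each of the arrays, as held for 14 of the 18 member probes and 9 of the 10 genes. The brightest kept probe stood for its gene. Each member probe was spotted once per array, so the error given is the median SD between spots of probes that were spotted 10 times and had a like brightness. It is a technical error within an array. With 1 array for each siRNA there is no replicate culture behind any ratio of a single siRNA, and the number of arrays limits the precision.

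FOXM1, a forkhead factor that drives genes of G2 and mitosis, and MYBL2, the MYB factor that recruits it to MuvB, were the lowest of the 9 measured members with both siRNAs. FOXM1 (probe on hg18 chr12:2837583-2837642, minus strand) had spot intensities of 513 with Non-T siRNA and 281 with SUB1 siRNA 1 on the first array, and of 448 and 208 on the array of SUB1 siRNA 2. The knockdown channel was thus the dimmer on both arrays. The log2 ratio was -1.07 ± 0.08 (spot SD) with siRNA 1 and -1.24 ± 0.07 with siRNA 2, which leaves 47.7% and 42.2% of the Non-T level. FOXM1 was therefore past the 2-fold limit with each siRNA, 2.10-fold and 2.37-fold lower. FOXM1 and MYBL2 each had a single probe in the set, so neither ratio could be compared with that of another probe.

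MYBL2 (probe on hg18 chr20:41777210-41777269, plus strand) had intensities of 740 with Non-T siRNA and 454 with siRNA 1, and of 675 and 317 on the array of siRNA 2. Its log2 ratio was -0.92 ± 0.08 and -1.31 ± 0.07. The decrease was 1.89-fold for siRNA 1 and 2.48-fold for siRNA 2. MYBL2 thus passed the 2-fold limit with siRNA 2 and not with siRNA 1, and was the lower of the pair with siRNA 2 while FOXM1 was the lower with siRNA 1. Between the arrays the ratios of MYBL2 were 0.39 apart, against a spot SD of that difference of 0.10, and those of FOXM1 were 0.17 apart, against 0.11. The spot SD leaves out differences between cultures, and whether the siRNAs differ was not tested. The normalized Non-T signal of both genes was close on the 2 arrays, with a log2 difference of -0.01 for FOXM1 and 0.09 for MYBL2.

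MYBL1 (A-MYB), the MYB paralogue known best from male germ cells, was lower by less. Its brightest probe had intensities of 579 and 509 in the Non-T and knockdown channels with siRNA 1, and of 492 and 357 with siRNA 2. The log2 ratio was -0.39 ± 0.08 and -0.66 ± 0.07, so that 76.2% and 63.1% of the Non-T level was left. The other 2 kept probes were dim, at 130.6 to 134 in the Non-T channel of the first array, and had -0.20 and -0.15 with siRNA 1 and -0.03 and -0.20 with siRNA 2. The probes of MYBL1 hence differed in size, all kept ones lying below 0, and the fourth was not well above background in any channel.

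**Figure D1:**
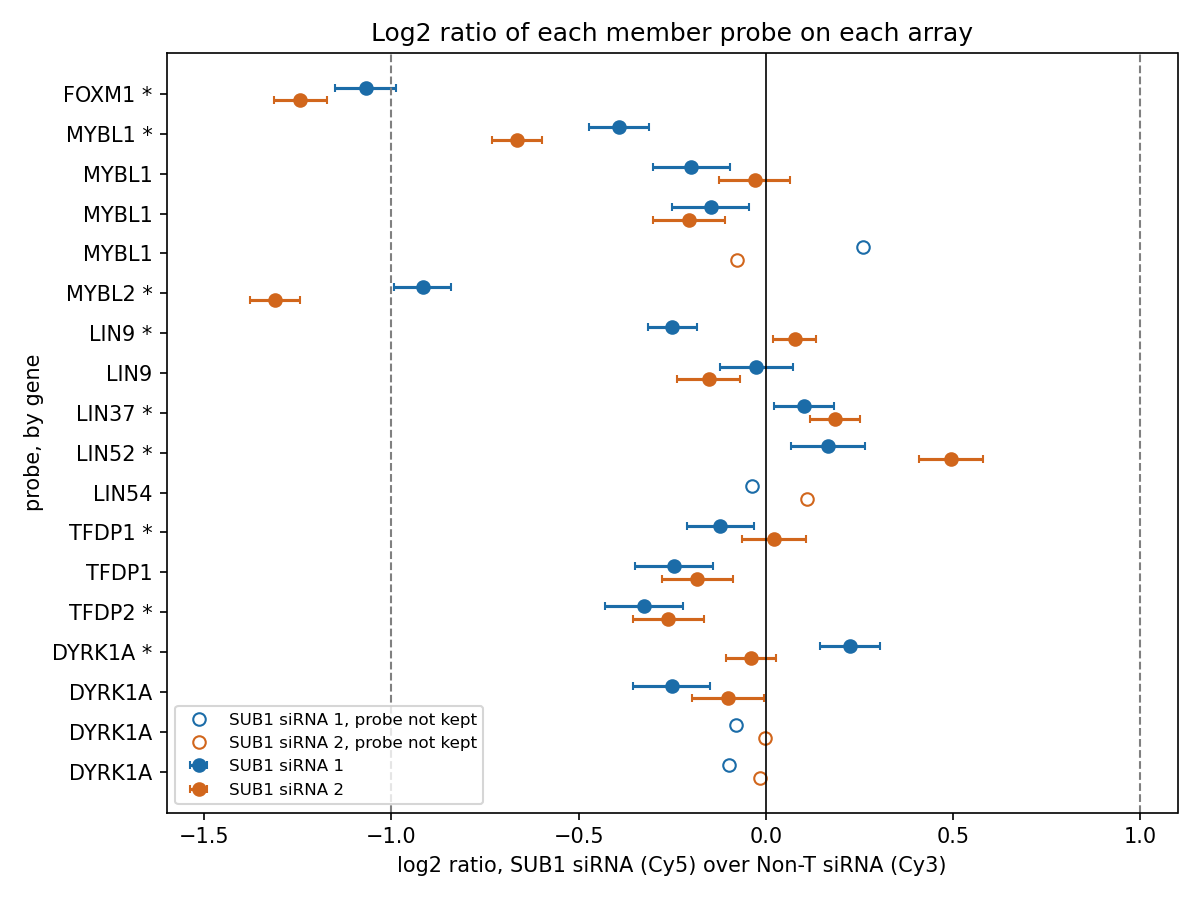
Log2 ratio against Non-T siRNA (horizontal axis) for each of the 18 member probes, in blue for siRNA 1 and orange for siRNA 2. Bars are the median spot SD of like probes, open circles are probes that were not kept, an asterisk marks the probe that stands for its gene, and dashed lines mark a 2-fold change. FOXM1 at -1.07 and -1.24 and MYBL2 at -0.92 and -1.31 lie apart from the other genes, which sit between -0.66 and 0.49.

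None of the 3 measured subunits of the MuvB core was 2-fold lower with either siRNA. Over all genes 0.609% were with siRNA 1 and 1.07% with siRNA 2, so a count of none among 3 genes says little. LIN52, the subunit through which MuvB holds either a pocket protein or MYBL2, had intensities of 144 (Non-T) and 149 with siRNA 1 and of 133 and 177 with siRNA 2. Its log2 ratio was 0.17 ± 0.10 and 0.49 ± 0.09. LIN52 was the highest member with siRNA 2, 1.41-fold above Non-T siRNA, and its signal was dim in every channel. LIN37, a subunit needed for repression by DREAM, had intensities of 481 and 597 with siRNA 1 and of 410 and 526 with siRNA 2, and log2 ratios of 0.10 ± 0.08 and 0.19 ± 0.07. Both values of LIN37 were above 0 and small beside those of FOXM1 and MYBL2.

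LIN9, a core subunit that binds the MYB factors, was measured by a bright and a dim probe. The bright one (intensities of 2046 and 2104 with siRNA 1, 1672 and 2174 with siRNA 2) had log2 ratios of -0.25 ± 0.07 and 0.08 ± 0.06. The dim one, which spans an intron, had -0.03 ± 0.10 and -0.15 ± 0.09. LIN9 thus had opposite signs with the siRNAs at the bright probe, and the probes did not agree on the order of the siRNAs. LIN54, the DNA-contacting subunit, had a single probe that was not well above background in either channel on either array, with intensities of 103 and 77 and of 86 and 74, so no ratio is given for it.

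The DP proteins are the dimer partners of E2F factors in activator complexes and in DREAM. TFDP1 had intensities of 221 and 208 with siRNA 1 and of 184 and 193 with siRNA 2. Its log2 ratio was -0.12 ± 0.09 and 0.02 ± 0.09, and a dimmer probe had -0.24 ± 0.10 and -0.18 ± 0.10. TFDP2 was dimmer, with intensities of 148 and 107 and of 133 and 111, and had log2 ratios of -0.33 ± 0.10 and -0.26 ± 0.09. TFDP2 was the only gene outside the FOXM1 and MYB group that lay below 0 with both siRNAs at the probe that stands for it.

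DYRK1A, the kinase that promotes DREAM, had intensities of 417 and 557 with siRNA 1 and of 370 and 401 with siRNA 2. Its log2 ratio was 0.22 ± 0.08 and -0.04 ± 0.07. A dimmer kept probe of DYRK1A, at 142 and 115 in the Non-T channel, had -0.25 ± 0.10 and -0.10 ± 0.10, so the probes had opposite signs with siRNA 1, and the remaining 2 probes were not kept. No direction can be given for DYRK1A from these values.

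**Figure D2:**
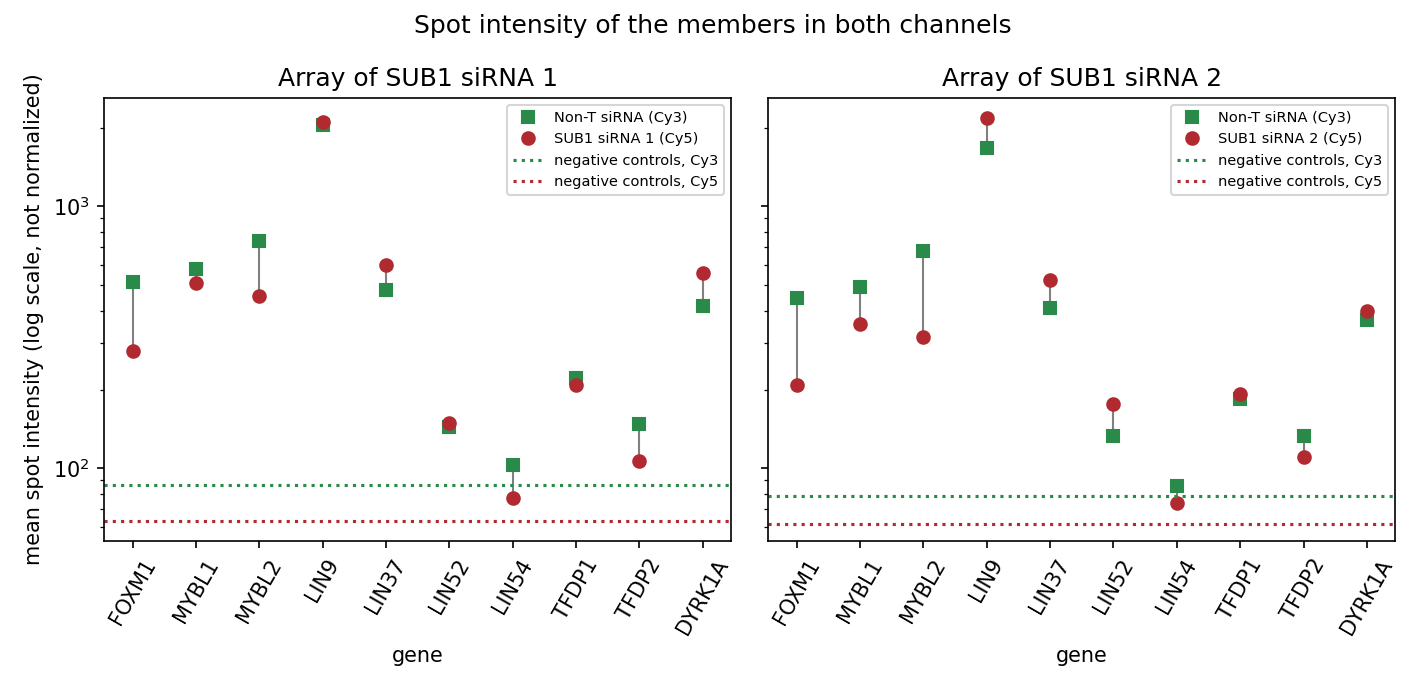
Mean spot intensity before normalization (vertical axis, log scale) of the probe that stands for each member, and of the single LIN54 probe, with Non-T siRNA in green and SUB1 siRNA in red, 1 panel per array. Dotted lines are the median negative control spots of each channel. The red point lies well below the green one for FOXM1 and MYBL2 on both arrays, while LIN54, at 103 and 77 and at 86 and 74, lies near the negative controls.

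Of the 9 measured members, 1 (FOXM1) was at least 2-fold lower with siRNA 1, where 0.609% of all 19218 genes were. With siRNA 2 there were 2 (FOXM1 and MYBL2), where 1.07% of all genes were. With both siRNAs there was 1 (FOXM1), where 0.14% of all genes were. No member was at least 2-fold higher, against 0.208% of all genes with siRNA 1 and 0.614% with siRNA 2. FOXM1 with siRNA 1 lay just past the limit, and it was short of it, at -0.90 and -0.97, with median centring and in the authors' own log2 ratios, while with siRNA 2 both FOXM1 and MYBL2 were past it under every processing tried.

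By sign alone, 4 members (FOXM1, MYBL1, MYBL2 and TFDP2) were below 0 with both siRNAs, where 30.3% of all genes were, and 2 (LIN37 and LIN52) were above 0 with both, where 38.1% of all genes were. LIN9, TFDP1 and DYRK1A had mixed signs, and each of these 3 changed sign for at least 1 siRNA under another processing. The median over the measured members was -0.25 with siRNA 1 and -0.04 with siRNA 2. The 3 activators (FOXM1, MYBL1, MYBL2) had medians of -0.92 and -1.24, and the 3 measured MuvB subunits had medians of 0.10 and 0.19.

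The mean log2 ratio over both siRNAs was tested against 0 with limma, which takes the siRNAs as 2 knockdowns and leaves out the spread of the control. It was -1.16 for FOXM1 (SE 0.10), -1.11 for MYBL2 (SE 0.13) and -0.53 for MYBL1 (SE 0.11). FOXM1 ranked 51 and MYBL2 ranked 60 from the lowest of 19218 genes. After Benjamini-Hochberg adjustment over all genes in limma, the adjusted p was 0.112 for FOXM1, 0.112 for MYBL2 and 0.137 for MYBL1, from 0.204 to 0.234 for TFDP2 and LIN52, and from 0.446 to 0.804 for the other 4. No member passed a limit of 0.05. Over all genes 0.0052% did, which was SUB1 alone. At an unadjusted p under 0.05 in limma there were 5 of the 9 measured members and 4013 of all 19218 genes.

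Without a dye swap, dye bias at a probe and a response to the knockdown cannot be told apart. Non-T RNA was the reference throughout, and the labels leave unsaid if 1 extract served both arrays. If so, a feature of that control would enter both ratios, so a like direction with both siRNAs is not independent evidence. In bulk RNA, a smaller share of cells in G2 or mitosis and less RNA in each such cell cannot be told apart.

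The other subunits of DREAM were mixed in direction. Of 5 partners, all measured, none was 2-fold changed with either siRNA. Over all genes 0.609% and 1.07% were 2-fold lower and 0.208% and 0.614% higher, so this count says little. E2F4, the repressive E2F of DREAM, had log2 ratios of -0.49 and -0.74, and its second probe had -0.39 and -0.46. RBBP4, the histone-binding subunit of MuvB, had 0.38 and 0.37, with 0.07 and 0.04 at a dimmer probe. E2F5 had 0.19 and 0.46 at its single probe. Of the pocket proteins, RBL1 had -0.33 and -0.28, and RBL2 had 0.07 and -0.13, each by its brightest kept probe of 2 on the array. The limma adjusted p of the partners was from 0.120 for E2F4 upwards.

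Kinases and cyclins that act on the members or their complexes were mostly lower. Of 9 measured, 7 were below 0 with both siRNAs, where 30.3% of all genes were. At least 2-fold lower were 3 with siRNA 1 and 3 with siRNA 2, where 0.609% and 1.07% of all genes were. The median of the 9 was -0.59 and -0.81. PLK1, which phosphorylates FOXM1 in G2, had -1.41 and -1.72 at its bright probe and -0.16 and -0.30 at a dimmer one. CDK1 had -1.04 and -1.76, and its partner CCNB1 had -1.08 with siRNA 1 and lay just past the 2-fold limit with siRNA 2. LATS2, a kinase reported to act on DYRK1A, went the other way with 0.67 and 0.54, and its second probe had 0.39 and 0.40. CDK1, CCNB1 and PLK1, the 3 past the 2-fold limit, are also in the G2/M list described next.

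Among the paralogues of the members, 6 of 7 were measured (TFDP3 was not) and none was 2-fold changed. Of all genes 0.609% and 1.07% were 2-fold lower and 0.208% and 0.614% higher, so a count of none says little here. DYRK3 had -0.50 and -0.42, but -0.15 and 0.10 at its second probe. TESMIN, a LIN54 paralogue, had 0.20 and 0.62 at a dim probe. DYRK2 had -0.19 and -0.30 at its brighter probe and 0.37 and -0.16 at the other. Probes of these genes therefore did not share a direction in every case.

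The genes that FOXM1 and MYBL2 are known to switch on were lower throughout. Of 40 G2/M targets, all measured, 10 were at least 2-fold lower with siRNA 1 (0.609% of all genes) and 27 with siRNA 2 (1.07%). All 40 were below 0 with both, where 30.3% of all genes were. The counts of 2-fold lower targets were 4 and 14 under median centring, and 24 with siRNA 1 for processed signals. Their median was -0.86 with siRNA 1 and -1.09 with siRNA 2, beside 0.02 and 0.02 over all genes. Next to PLK1, the lowest by mean ratio were HMMR (-1.40 and -1.69), CCNB2 (-1.21 and -1.74) and CEP55 (-1.17 and -1.72), which code for a hyaluronan-mediated motility receptor found at the spindle, a mitotic cyclin and a factor of the final cut between daughter cells. FOXM1 and MYBL2 lay within the range of their targets, which was -1.41 to -0.22 for siRNA 1 and -1.76 to -0.20 for siRNA 2. This list was chosen with the decrease of mitotic genes in these arrays known, so it is no independent evidence of its direction.

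The G1/S genes that E2F-DP dimers are known to control were lower by less. Of 40, all measured, 2 were at least 2-fold lower with siRNA 1 (0.609% of all genes) and 6 with siRNA 2 (1.07%). Below 0 with both were 35 of the G1/S genes, against 30.3% of all genes. The G1/S medians on the arrays were -0.33 and -0.52, and the first was -0.13 under median centring. By mean ratio the lowest were TK1 (-1.09 and -1.56), RRM2 (-1.14 and -1.25), CDT1 (-0.97 and -1.34) and CDC45 (-0.68 and -1.22). A second kept probe of RRM2 had -0.41 and -0.48, and that of CDT1 had -0.56 and -0.91. MYBL2, whose own promoter is a textbook E2F target, was lower than each of these medians. No gene of either list passed the limma test at an adjusted p of 0.05. At an unadjusted p under 0.05 in limma there were 39 G2/M and 24 G1/S genes, beside 4013 of all 19218 genes.

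**Figure D3:**
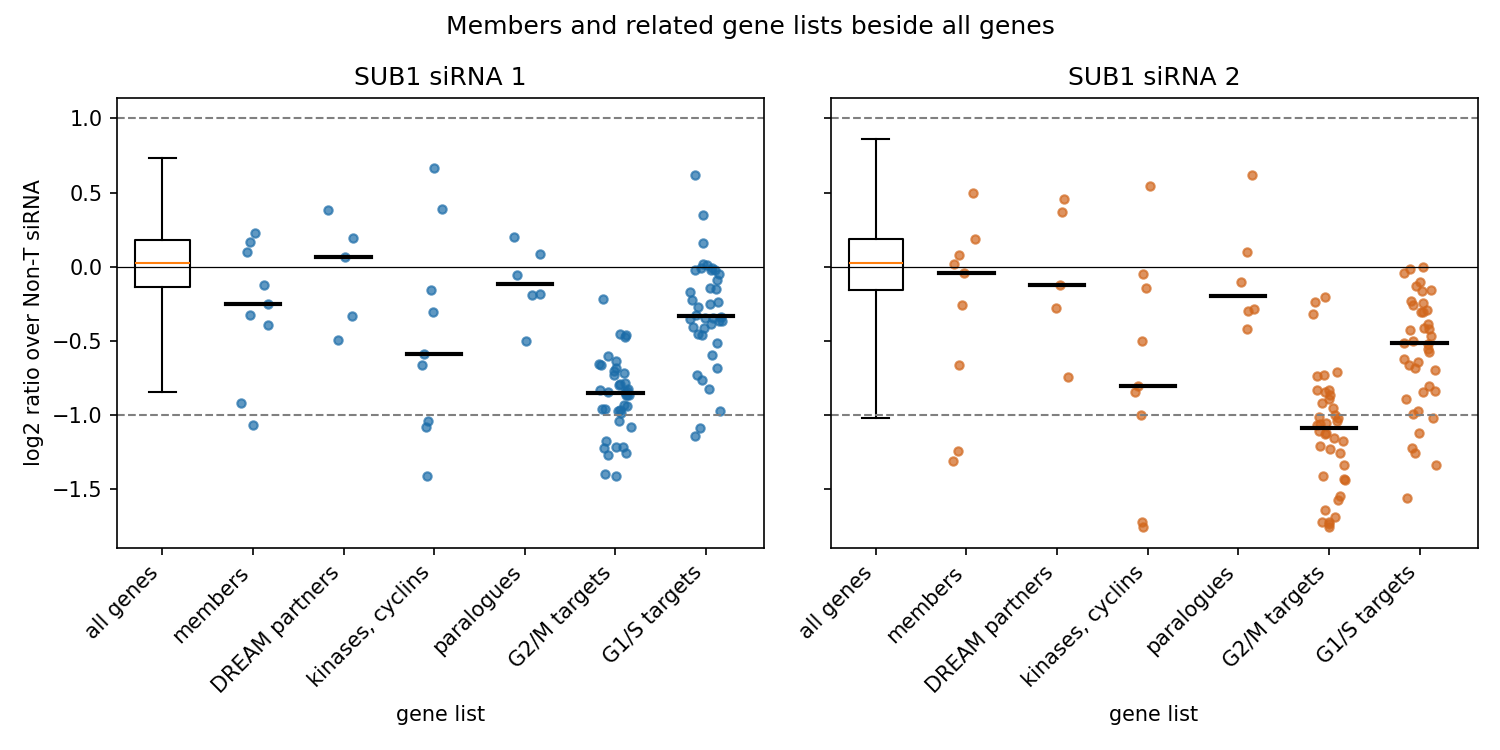
Log2 ratio against Non-T siRNA (vertical axis) for the genes of each list, with 1 panel per siRNA. The box shows the quartiles of all 19218 genes with whiskers at the outer percentiles, points are genes, black bars are list medians and dashed lines mark a 2-fold change. The 40 G2/M targets all lie below 0, with medians of -0.86 and -1.09, while the members spread from the level of those targets (FOXM1, MYBL2) to above 0 (LIN37, LIN52).

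The promoter letters were counted without use of the array values, over lists that hold textbook targets of these regulators. The lists were chosen with earlier results of these arrays known and for regulators that act through these elements. The shares are therefore a description and no independent evidence. Of the 40 G2/M targets, 34 have RefSeq windows, and 26 of those genes held the CHR letters (29 of 41 windows, 70.73%, against 16.35% of all windows). The G1/S targets with windows numbered 33, and 3 of them held the CHR letters (6.38% of windows), while 19 held the E2F letters (42.55% of windows, against 3.31% of all). CCAAT, the box bound by NF-Y and searched on both strands, was in 82.93% of G2/M windows, in 63.83% of G1/S windows and in 34.61% of all windows. Among the members it was in 26.32% of windows. The MYBL2 window held none of the CHR letters. The core GGCGGGA, picked from that window, was in 53.19% of G1/S windows and 21.95% of G2/M windows, and all 8 members with a window hold it, so it does not set MYBL2 apart.

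**Figure D4:**
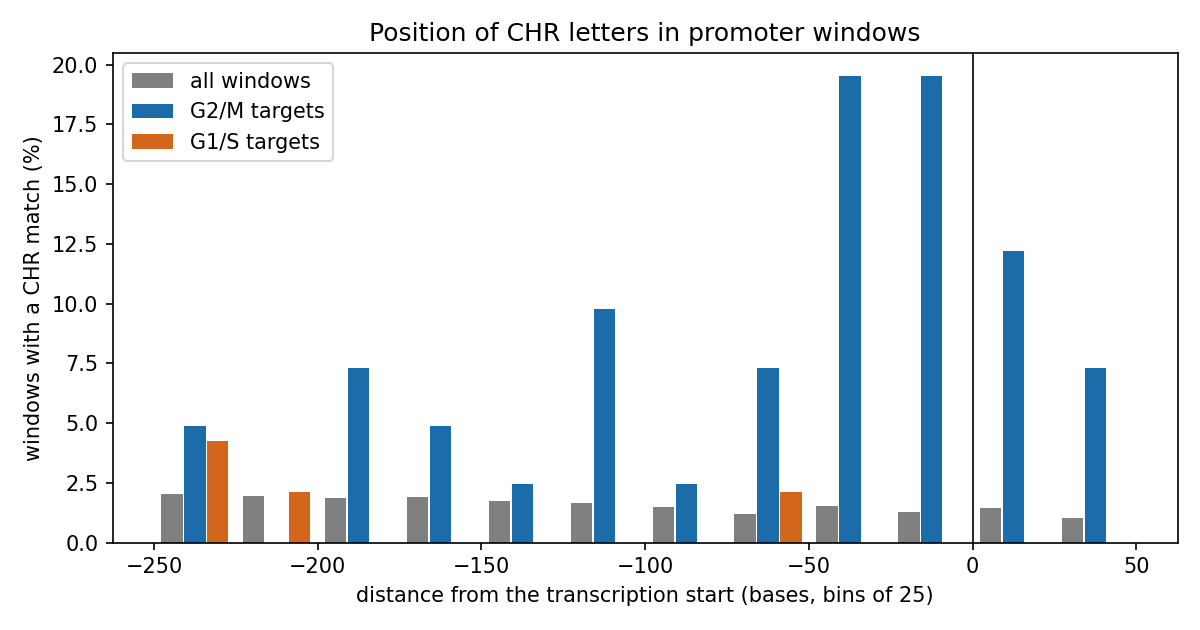
Share of RefSeq promoter windows with the CHR letters (vertical axis, percent) in bins of 25 bases by distance from the transcription start (horizontal axis). Grey bars are all 35116 windows, blue bars the 41 windows of G2/M targets and orange bars the 47 windows of G1/S targets. The blue bars are highest in the 2 bins just before the start, at 19.51% each, where all windows are at 1.51% and 1.26%.

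The values of the members moved with the processing in size more than in direction. With the scanner software's processed signals, FOXM1 had -1.22 and -1.59, MYBL2 had -0.99 and -1.46, TFDP2 had -0.90 and -0.47, and LIN52 had 0.24 and 0.86. Each of these values lies farther from 0 than in the main processing. The main processing adds an offset, which draws the ratios of dim probes towards 0, but the offset alone was not varied. What sets the values apart was therefore not tested. Median centring, which takes out no intensity-dependent dye effect, moved the median of all genes to 0.13 and 0.12 and set FOXM1 at -0.90 and -1.09 and MYBL2 at -0.72 and -1.13. FOXM1, MYBL2, MYBL1 and TFDP2 stayed below 0 and LIN37 and LIN52 above 0 with both siRNAs under each alternative.

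**Figure D5:**
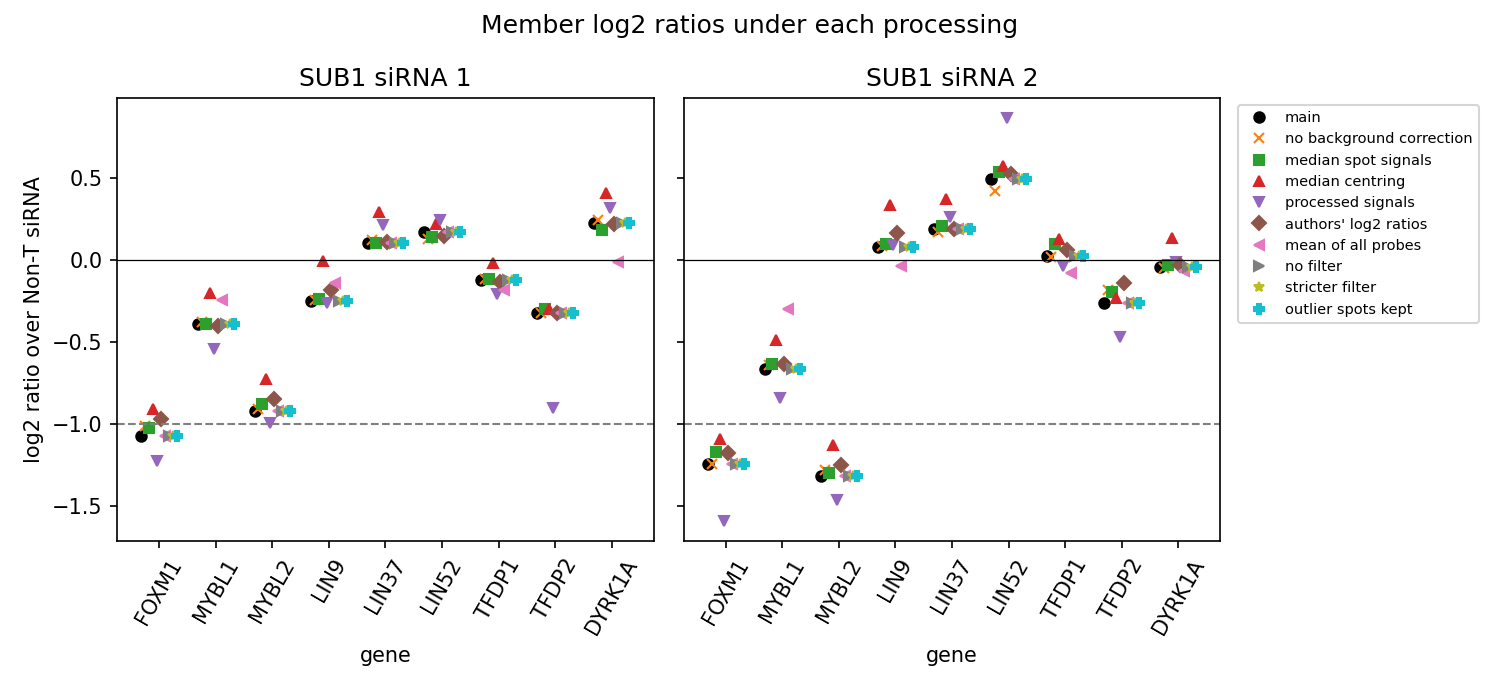
Log2 ratio of each measured member (vertical axis) under the main processing (black) and each alternative, with 1 panel per siRNA and a dashed line at a 2-fold decrease. FOXM1 with siRNA 1 lies on both sides of the line, from -1.22 to -0.90, while FOXM1 and MYBL2 with siRNA 2 lie below it throughout, at -1.09 and -1.13 or lower.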

How the data were processed

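The authors scanned 2 two-colour Agilent arrays and quantified them with Feature Extraction 9.5.1.1. The deposited scanner files give spot intensity in both channels, local background and processed intensity, with probe coordinates of build hg18. A further deposited table holds the authors' log2 ratios after loess, which served as an alternative. Their direction and scale were settled against Cy5 over Cy3 (Pearson correlation across probes of 0.958 and 0.970, slopes of 1.01 and 1.02). The log10 ratios of the scanner software and their p-values were not used.

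Mean spot intensities were corrected with normexp (offset 50) and loess at a span of 0.3 (limma 3.58.1, R 4.3.3). Control spots and outlier spots (112 and 100) were left out. Probes were kept if at least 0.5 of their spots were well above background in 1 channel on both arrays (25673 of 41000 probes, 19218 genes), and the brightest kept probe stood for a gene. Member probes were found by current symbol or alias, and 2 alias matches whose accession belonged to other genes were left out. Genes were named through the RefSeq gene table (GRCh38.p14), without its coordinates, or else by the array.

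A change was an absolute fold of 2 on each array, as in the study's methods. The mean ratio of both arrays was tested against 0 with limma (lmFit, eBayes, Benjamini-Hochberg over all genes). p-values measure only the spread between these 2 arrays. The spot SD was the median over kept probes with 10 spots within 0.5 log2 units of brightness. The fit was tested on simulated data. Alternatives were no background correction, median spot signals, median centring, processed signals, the authors' ratios, the mean of all probes, no filter, a stricter filter, outlier spots kept and an intensity trend. Members and lists were chosen with earlier results of these data known. Beside the members, the text names SUB1 and, of each list, the 3 or 4 genes with the largest absolute mean ratio and any that went the other way by at least 0.5 on both arrays. RBL1, RBL2 and TFDP3, the motif letters and the marker genes fall outside that rule. A further marker list is not reported here.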

Additional observations from a re-analysis of the deposited data

Results flagged for a closer look

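The bright probe of LIN9 had opposite signs with the siRNAs, with log2 ratios of -0.25 with siRNA 1 and 0.08 with siRNA 2. The difference of 0.33 was larger than the spot SD of a difference at that brightness (0.09), and whether the siRNAs differ was not tested, since each has 1 array. DYRK1A likewise had 0.22 with siRNA 1 and -0.04 with siRNA 2, a difference of -0.27 against a spot SD of 0.11, which was not tested either. Its value with siRNA 2 was within its own spot SD of 0.07, and under median centring DYRK1A had 0.41 and 0.13. LIN9 had -0.008 and 0.33 under median centring, so its value with siRNA 1 was close to 0 there. In both genes the second kept probe was below 0 with both siRNAs. The flag asked for opposite signs, so it left out MYBL2, MYBL1 and LIN52. Their differences, siRNA 2 minus siRNA 1, were -0.39, -0.27 and 0.33, against spot SDs of 0.10, 0.10 and 0.13.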

How the results depend on the processing

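FOXM1, MYBL2, MYBL1, TFDP2, LIN37 and LIN52 kept their direction with both siRNAs under each alternative. Of 162 alternative values of the members, 139 moved by less than 0.117, the SD of the normalized Non-T log2 signal between the arrays, and no 2-fold change was reversed. That count includes values that could not move. No filter, a stricter filter and keeping outlier spots left the same spot in use for every measured member. The mean of all probes could not move a member with 1 kept probe. The adjusted p of FOXM1 in limma ran from 0.0577 to 0.175. With siRNA 1, 0 members in place of 1 were at least 2-fold lower under median centring and in the authors' ratios. Median centring gave G2/M target medians of -0.69 and -0.89 and G1/S medians of -0.13 and -0.39, with 4 and 14 G2/M targets at least 2-fold lower. It set 56 and 101 genes lower and 137 and 266 higher, a share of 71.0% and 72.5% higher among changed genes, against 25.5% and 36.5% in the main processing. Processed signals gave G2/M medians of -1.05 and -1.39, a G1/S median of -0.72 with siRNA 2, 24 G2/M targets lower with siRNA 1, and 297 and 471 genes lower and 778 and 997 higher (72.4% and 67.9% higher). In the authors' ratios 36.7% and 47.4% of changed genes were higher. The gene past the adjusted p (SUB1) was lost (0 genes) with no background correction, median centring, processed signals and the authors' ratios. With an array left out no test remains, and slide was not a term because both arrays share it. Each log2 ratio already pairs knockdown and control within an array, so no further block was fitted. Signals near the negative controls (86.5 and 63.2 on the first array) limit TFDP2, LIN52 and LIN54.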

Other observations

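A probe outside the rule, THC2694827, is described on the array as a partial FOXM1A transcript and maps to another chromosome than FOXM1. It was dim, with Cy3 intensities of 173 and 149, and had log2 ratios of 0.14 and 0.14, unlike the FOXM1 probe. It was chosen after its values were seen.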
